A study of Mus musculus with 12 samples.

Results

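The subject is the response of NMuMG spheroids to TGFB1 after 4 h, set against serum-free medium. The members were chosen by their labels: the 4 arrays labelled TGFB1 and the 4 arrays labelled as serum-free medium, 8 of the 12 arrays of the study. NMuMG is an epithelial line from the normal mouse mammary gland. The cells were plated on top of Matrigel, a basement membrane extract, at 5000 cells per well and grew for 6 days in growth medium that was renewed on day 4. They were then given 50 ng/mL TGFB1 or serum-free medium alone for 4 h, and each replicate pools the RNA of 2 wells. The other 4 arrays, from spheroids given 250 ng/mL GDF11, also enter the fits. They help to estimate the spread and, in the second fit described below, the effect of array brightness. All groups come from 1 cell line. The p-values measure the spread between replicate arrays of that line, in which differences between cultures and between arrays are not separated.

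TGFB1 is the founding ligand of the TGF-beta family. It binds the type II receptor TGFBR2, which activates the type I receptor TGFBR1, and the pair phosphorylates SMAD2 and SMAD3, which enter the nucleus with SMAD4 and act there with partners such as AP-1. In epithelial cells the pathway is known for halting proliferation, for matrix synthesis and for the epithelial to mesenchymal transition (EMT), and NMuMG is a line in which that transition is widely studied. Feedback is part of the pathway, since SMAD3 also drives genes whose products restrain it.

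The labelled cell type was checked against its markers. Of 14 luminal mammary markers 13 had a probe, of which Krt8, Krt18, Krt19, Cdh1, Cd24a and Foxa1 were detected on all 8 arrays and 5 on none. Of 12 basal markers 11 had a probe, of which Egfr and Mylk were detected on all 8 arrays and 5 on none. No fibroblast, endothelial or leukocyte marker, out of 12, 10 and 11 with a probe, was detected on all 4 arrays of either group, and 9, 5 and 7 of them were detected on none of the 8. Of 8 adipocyte markers Pparg was detected on all 8 arrays. In bulk RNA, fewer cells of a type and less RNA per cell cannot be told apart.

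The arrays differed in brightness in step with the groups. Mean raw intensity was 304, 302, 299 and 287 scanner units on the TGFB1 arrays, against 149, 165, 283 and 160 on the serum-free arrays. TGFB1 arrays averaged 298 ± 7.53 and serum-free arrays 189 ± 62.8 (SD, n = 4 each, two-sided exact permutation p = 0.0286, the smallest that 4 against 4 allows). Serum-free replicate 3 was nearly as bright as the dimmest TGFB1 array, and replicates 1, 2 and 4 were dim. Mean beads per probe were 36.3 ± 1.34 with TGFB1 and 39.6 ± 0.443 in serum-free medium (exact permutation p = 0.0286), and the percent of probes detected was 48.9 ± 0.671 with TGFB1 and 44.0 ± 3.05 in serum-free medium (exact permutation p = 0.0571). Quantile normalization set all arrays to 1 distribution, but did not bring serum-free replicate 3 to its group. It correlated at 0.973 to 0.974 with the TGFB1 arrays and at 0.957 to 0.964 with the other serum-free arrays, which correlated at 0.981 to 0.983 among themselves.

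**Figure D1:**
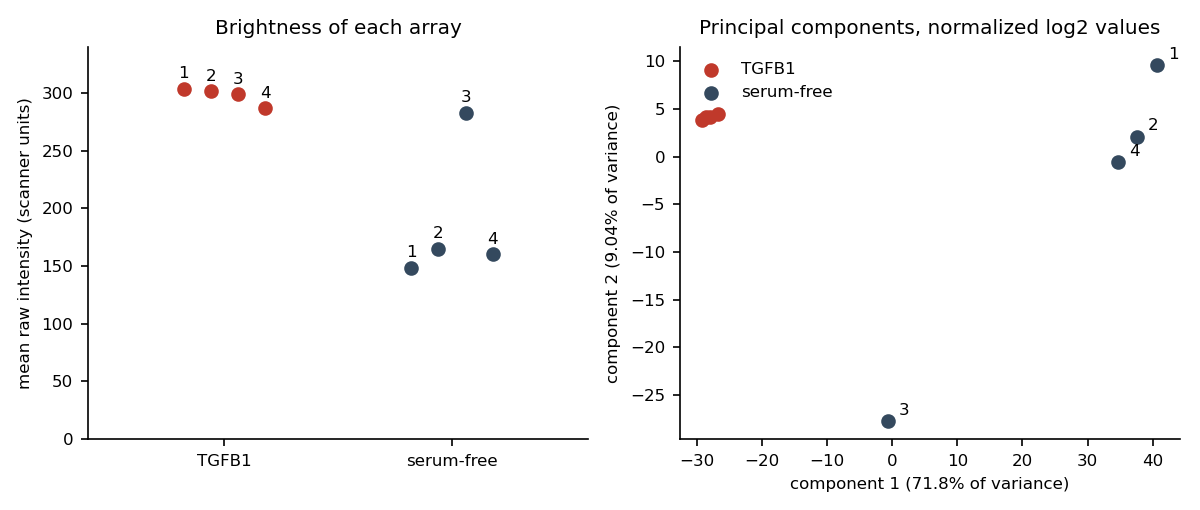
Left, mean raw intensity of each array in scanner units, TGFB1 (red) and serum-free (dark blue), numbered by replicate. Right, the first 2 principal components of the normalized log2 values of the 8 arrays, with serum-free arrays numbered. The 4 TGFB1 arrays lie together at -26.7 to -29.1 on component 1, serum-free 1, 2 and 4 at 34.7 to 40.7, and serum-free 3 between them at -0.56.

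For this reason a pair of fits was made. The first compares the group means. The second adds a term for the 4 dim against the 8 bright arrays of the study, here called the brightness term. GDF11 replicate 1 was the other dim array. The term takes each gene's shift with brightness to be equal in all groups. Only the serum-free and GDF11 groups hold both dim and bright arrays, so the changes with the term also depend on the GDF11 arrays. A gene is called at a Benjamini-Hochberg adjusted p under 0.05 over all 9134 tested genes (limma), and "called both ways" means called in the same direction without and with the term. Levels are normalized log2 intensities, in which 1 unit is a 2-fold difference. Levels of different probes cannot be compared, and the normalization offset understates changes of dim genes. A change is TGFB1 minus serum-free medium with its standard error, and adjusted p-values are limma's. Changes are given without the term, and the value with the term is added where it is over 1.5 times larger or smaller or ends the call.

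A large share of the genes measured differed between the groups. Without the term 3140 of 9134 genes were called (34.4%), 1436 higher (15.7%) and 1704 lower (18.7%) with TGFB1. With the term 1448 were called (15.9%), 724 in each direction (7.93% each). Of the genes, 530 rose (5.8%) and 586 fell (6.42%) in both fits, and none was called in opposite directions. A further 2024 genes were called only without the term and 332 only with it. Of the 1116 genes called both ways, 975 were also called when only the bright arrays were used, which called 17.1% of all genes. That comparison sets 4 TGFB1 arrays against serum-free replicate 3 alone, whose spread is taken to be that of the other groups. Since this array also weighs heavily in the fit with the term, the overlap is no independent support. Among genes called both ways, 167 rose (1.83%) and 120 fell (1.31%) at least 2-fold in both fits, 3.14% of all genes. In 33.5% of all genes the arrays of the groups did not overlap, and 49.2% shifted with brightness in the second fit. The direction of small changes, and the calls of some larger falls, depend on the scaling of the arrays. With median scaling in place of quantile normalization the median change of all genes was 0.60, and 3984 genes were called higher and 138 lower. Changes given here are relative to a median of all genes near 0 (-0.01 without and -0.02 with the term). Median scaling turned the sign of the named genes listed in the closing section, all of which then lay below the median of 0.60. It also ended the call of 25 other named genes, all of them falls that kept their direction. Gdf15, Gclc, Foxa2, Nfe2l2 and Il33 are among them, and the closing section lists all.

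1 array had much weight in these counts. Without serum-free replicate 3 the first fit called 4453 genes, 2081 higher and 2372 lower. Without any other single array of the 8 it called 2046 to 2216, the lowest of them without serum-free replicate 1 (2046) or 2 (2061). With the term, leaving out GDF11 replicate 1 lowered the calls to 975, of which 514 were higher and 461 lower.

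Serum-free replicate 3 is the only bright array of its group. Its place, together with that of GDF11 replicate 1, largely fixes which genes stay called with the term. The following values therefore only describe the classes. On the way from the mean of serum-free replicates 1, 2 and 4 to the TGFB1 mean, it lay at a median of 19.3% of the distance for the 1116 genes called both ways. For the 2024 genes called only without the term it lay at 67.6%, and for 76.2% of those it was nearer to the TGFB1 arrays than to its own group. How far the term removes a true response, or the first fit counts a brightness effect as one, cannot be told apart, since no TGFB1 array was dim.

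**Figure D2:**
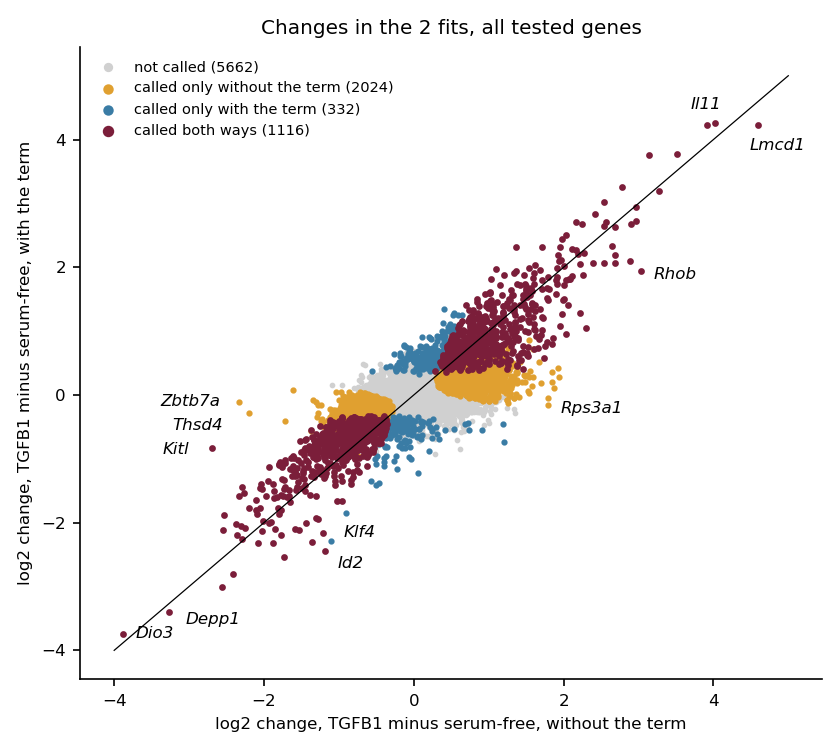
Log2 change of each tested gene, TGFB1 minus serum-free medium, without (horizontal) and with (vertical) the brightness term. Dark red points were called both ways (1116), orange only without the term (2024), blue only with it (332) and grey in neither, and the line marks equal values. Lmcd1, Il11, Dio3 and Depp1 lie near the line, Rps3a1, Zbtb7a and Thsd4 near 0 with the term, and Id2 and Klf4 beyond the line.

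The strongest rises were of genes with dim probes in serum-free medium. Lmcd1, a LIM-domain cofactor of transcription, stood at 9.70, 9.65, 9.72 and 9.84 on the TGFB1 arrays, against 4.95, 4.70, 5.63 and 5.28 on the serum-free arrays. This is 24.1-fold (log2 change 4.59 ± 0.18, adjusted p = 2.67e-09), and 4.22 with the term. The groups lay over 4 log2 units apart, and the bright serum-free array was the highest of its group. Il11, an IL-6 family cytokine, stood at 8.86, 9.02, 9.26 and 9.10 with TGFB1, against 4.59, 5.51, 4.92 and 5.12 in serum-free medium (log2 change 4.02 ± 0.27, adjusted p = 2.58e-07). Cldn4, which encodes the tight junction protein claudin-4, stood at 8.27, 8.11, 8.09 and 8.25 with TGFB1, against 4.30, 4.44, 4.14 and 4.16 in serum-free medium. It was detected on every TGFB1 array and on no serum-free array, and was at least 11.7-fold higher (adjusted p = 3.44e-09), taking the lowest detected level of each serum-free array as its floor.

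The upstream sequences of these 3 genes are shown because they carried the largest rises. Each is the 250 bases before the annotated start, 5′ to 3′ on the gene's strand, from RefSeq (GRCm38.p6). Capitals mark an AP-1 site (TGANTCA) or a CAGA box (CAGACA), in either strand, since AP-1 and SMAD3 are known to bind such letters. None of these matches overlap. The regions are chr6:112273508-112273757 on the plus strand for Lmcd1, chr7:4778142-4778391 on the minus strand for Il11, where RefSeq lists 2 starts, and chr5:134946935-134947184 on the minus strand for Cldn4.
Lmcd1: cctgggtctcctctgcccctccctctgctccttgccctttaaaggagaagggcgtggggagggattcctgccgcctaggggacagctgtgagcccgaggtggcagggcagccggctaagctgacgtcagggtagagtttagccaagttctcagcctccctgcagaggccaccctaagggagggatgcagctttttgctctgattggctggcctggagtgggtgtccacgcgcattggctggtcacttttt
Il11: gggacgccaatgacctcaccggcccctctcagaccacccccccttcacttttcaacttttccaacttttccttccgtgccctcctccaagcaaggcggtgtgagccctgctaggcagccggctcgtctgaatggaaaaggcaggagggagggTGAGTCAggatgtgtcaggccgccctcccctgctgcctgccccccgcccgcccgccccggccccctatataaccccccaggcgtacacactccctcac
Cldn4: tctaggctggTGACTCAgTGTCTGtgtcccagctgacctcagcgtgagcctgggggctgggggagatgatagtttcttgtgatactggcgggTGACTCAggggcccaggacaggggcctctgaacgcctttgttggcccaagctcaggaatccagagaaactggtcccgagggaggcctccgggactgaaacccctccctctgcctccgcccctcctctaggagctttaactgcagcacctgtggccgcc
The window of Cldn4 holds AP-1 sites that begin 240 and 158 bases before the start and a CAGA box 232 before it. That of Il11 holds an AP-1 site 98 bases before the start, and the Lmcd1 window and the window of the other Il11 start hold neither motif. AP-1 sites were in the window of 46 of 395 genes that rose both ways (11.6%), 38 of 449 that fell both ways (8.46%) and 418 of all 7063 tested genes with a listed promoter (5.92%). CAGA boxes were in 23.5%, 17.8% and 16.0% of the same genes. The SMAD palindrome GTCTAGAC was in 1 of the 395 and in none of the 449, beside 15 of the 7063. The GC-rich SMAD motif GGCGCC was in 18.7%, 15.4% and 19.5%, and the E-box CACGTG in 36, 54 and 715 of the same genes. A match is a stretch of letters, and binding was not measured.

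Several other genes rose with no overlap between the groups. Mab21l4 stood at 11.51, 11.52, 11.59 and 11.39 with TGFB1, against 7.96, 7.93, 7.73 and 8.31 in serum-free medium (log2 change 3.52 ± 0.15, adjusted p = 4.04e-09). Ass1, which makes argininosuccinate on the way to arginine, stood at 8.48, 8.45, 8.72 and 8.52 with TGFB1, against 5.17, 5.20, 5.55 and 5.14 in serum-free medium (log2 change 3.28 ± 0.14, adjusted p = 4.37e-09). Bhlhe40, a transcriptional repressor that also acts on the clock, stood at 10.66, 10.90, 10.79 and 10.80 with TGFB1, against 7.59, 7.88, 8.21 and 7.88 in serum-free medium (log2 change 2.89 ± 0.14, adjusted p = 1.12e-08). In each the 4 TGFB1 arrays lay within 0.3 log2 units of each other and above every serum-free array. Cd40, a receptor of the TNF family, was detected on all 4 TGFB1 arrays and no serum-free array and was at least 7.14-fold higher (adjusted p = 2.86e-06), while its 2 other probes gave changes of 0.71 and 1.21. The syndecan gene Sdc3 rose by 2.97 ± 0.16, Spsb1, a substrate receptor of a ubiquitin ligase, by 2.96 ± 0.12, and the sphingosine kinase gene Sphk1 by 2.78 ± 0.19 (adjusted p = 3.15e-08, 3.44e-09 and 3.6e-07). The small GTPase gene Rhob and the actin-binding gene Marcksl1 rose by 3.03 ± 0.37 and 2.89 ± 0.28. For these genes serum-free replicate 3, at 8.84 and 9.03, was the highest of its group, and the values with the term were smaller, 1.94 and 2.11.

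The remaining 8 of the 20 largest rises by measured mean were Plek2, a pleckstrin, Epb41l2, a protein 4.1 family member that links membrane to cytoskeleton, Pcolce2, which enhances procollagen processing, the DNA-binding factor Arid3a, the kinase Dyrk3, the adhesion receptor Adgra1, the CNC family transcription factor Nfe2l3 and the sulfotransferase Chst8. Of those detected on at least 2 serum-free arrays, Plek2 rose most, by 2.69 ± 0.22, and Chst8 least, by 2.54 ± 0.21. Adgra1 was at least 4.4-fold and Nfe2l3 at least 4.95-fold higher. Cldn4, Cd40, Adgra1 and Nfe2l3 were among 42 genes called both ways that were detected on all 4 TGFB1 arrays and on no serum-free array (0.46% of all genes). Others were the phosphatase gene Dusp2 (at least 2.92-fold), the immediate-early factor Egr2 (at least 2.4-fold) and the TNF receptor adaptor Traf1 (at least 2.1-fold). Another Dusp2 probe gave a log2 change of 0.70. The reverse pattern was seen in 3 genes (0.0328%), among them Ppp1r3c, a glycogen-targeting subunit of a phosphatase (at least 2.9-fold lower). Serum-free replicates 1, 2 and 4 detected 42.4% to 42.7% of probes, and the TGFB1 arrays 48.0% to 49.6%. These patterns were therefore not equally easy to meet, and their counts cannot be compared. Some probes were above background on part of a group only, so their changes are measured partly against background. On the serum-free arrays Arid3a, Epb41l2, Krt14 and Maff were detected on 2, Pmepa1, Runx1, Snai1 and Thbs1 on 1, and Il11, Col7a1, Foxf2, Itga5, Itga6, Mst1r, Osmr, Psmb5, Smurf1 and Tgfb2 on 3. On the TGFB1 arrays Kcnk5 was detected on 2 and H2-T3, Kitl and Shh on 1.

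The largest fall was that of Dio3, the deiodinase that inactivates thyroid hormone. It stood at 4.62, 4.66, 4.46 and 4.52 with TGFB1, against 8.38, 8.32, 8.48 and 8.59 in serum-free medium, 14.7-fold lower (log2 change -3.88 ± 0.14, adjusted p = 2.67e-09). Depp1, a FOXO target, stood at 5.74, 5.85, 5.55 and 5.47 with TGFB1, against 8.77, 9.03, 8.89 and 9.01 in serum-free medium (log2 change -3.27 ± 0.16, adjusted p = 1.96e-08). Both groups were tight in both genes, and the bright serum-free array stood within the range of the dim ones. Clec2d, a C-type lectin gene, stood at 5.96, 6.06, 6.03 and 5.65 with TGFB1, against 8.49, 8.14, 8.86 and 8.44 in serum-free medium (log2 change -2.56 ± 0.21, adjusted p = 1.41e-06). The membrane serine protease gene Tmprss2 stood at 5.68, 5.81, 5.86 and 5.70 with TGFB1, against 8.61, 8.40, 7.98 and 8.26 in serum-free medium (log2 change -2.55 ± 0.18, adjusted p = 4.94e-07). Dbp, an output factor of the circadian clock, stood at 5.30, 5.40, 5.07 and 5.30 with TGFB1, against 7.66, 7.64, 7.40 and 7.86 in serum-free medium (log2 change -2.37 ± 0.16, adjusted p = 3.6e-07). In all of these every TGFB1 array was more than 1.5 log2 units below every serum-free array.

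**Figure D3:**
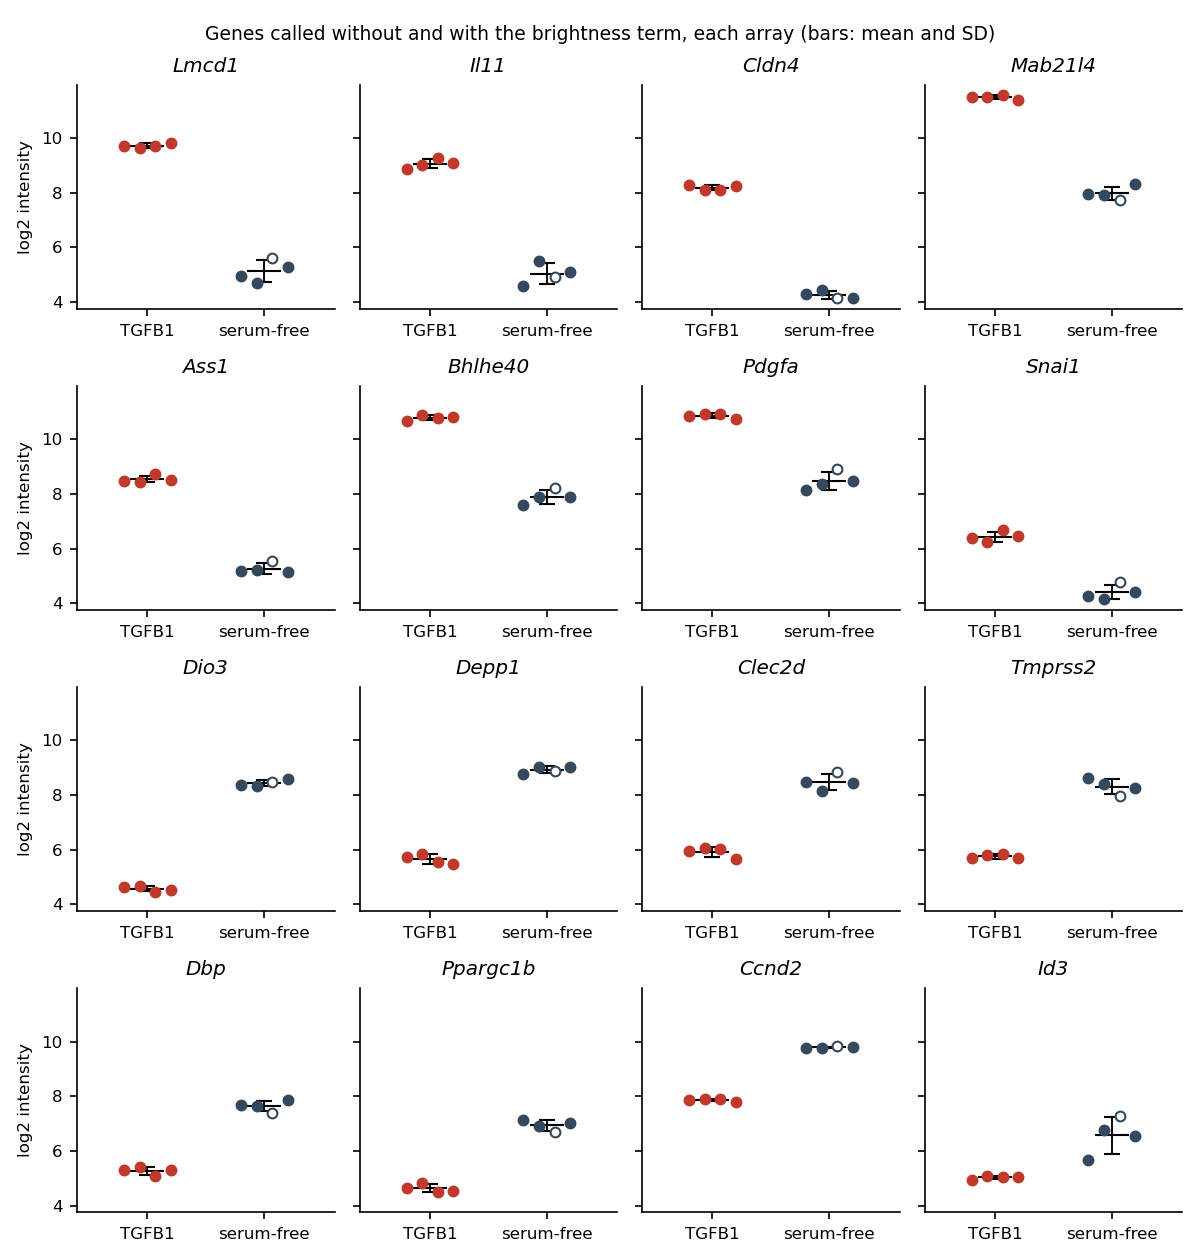
Normalized log2 intensity of 16 genes called both ways on each of the 4 TGFB1 arrays (red, left) and the 4 serum-free arrays (dark blue, right), with mean and SD. The open point is the bright serum-free replicate 3. In each gene the groups do not overlap.

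The other large falls included metabolic enzymes, signalling genes and a coactivator. Akr1c19, an aldo-keto reductase gene, changed by -2.53 ± 0.24, and Ugt2b35, which encodes a glucuronosyltransferase, by -2.42 ± 0.21 (adjusted p = 7.48e-06 and 3.55e-06). Ppargc1b, a coactivator of mitochondrial genes, stood at 4.65, 4.83, 4.50 and 4.54 with TGFB1, against 7.12, 6.91, 6.68 and 7.01 in serum-free medium (log2 change -2.30 ± 0.14, adjusted p = 1.8e-07). Osgin1, an oxidative stress response gene, changed by -2.30 ± 0.15, the chemokine gene Cxcl1 by -2.11 ± 0.19 and Shh, the sonic hedgehog ligand, by -2.06 ± 0.21 (adjusted p = 2.52e-07, 5.19e-06 and 1.15e-05). Neu2, St8sia4, Mtcl1, Sorbs2, Kcnk5, Asb13, Prr15l and Flrt3 fell by 2.08 to 2.33, St8sia4 by 1.45 with the term. Another Shh probe gave a change of -0.23. Kitl, which encodes stem cell factor, depended most on the fit among the 20. It stood at 4.62, 4.34, 4.39 and 4.42 with TGFB1, where 1 array detected it, against 7.88, 7.62, 5.29 and 7.74 in serum-free medium, a measured change of -2.69 ± 0.59 without the term (adjusted p = 0.00467) and -0.83 with it (adjusted p = 0.000255). Its bright serum-free array stood closer to the TGFB1 arrays than to the dim ones.

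SMAD2/3 target genes rose far more often than the average gene. Of 42 tested members 29 rose and 4 fell without the term, and 25 rose and 3 fell both ways, beside 5.8% and 6.42% of all genes. The median change was 0.82 without and 1.08 with the term, beside -0.01 and -0.02 over all genes. The members were picked with earlier results of these data known, so the count is a description. After Lmcd1, Il11, Bhlhe40 and Sphk1 the largest rises were of Timp3, an inhibitor of matrix proteases (2.41 ± 0.25), and of the growth factor genes Pdgfa (2.40 ± 0.15) and Pdgfb (2.12 ± 0.13; adjusted p = 1.28e-05, 2.2e-07 and 9.3e-08). The members that fell were Edn1, the endothelin-1 gene (-0.82 ± 0.21), Rasl11b (-1.60 ± 0.23), Tuft1 (-1.20 ± 0.18) and Arid5b (-1.42 ± 0.24). With the term Rasl11b, Tuft1 and Arid5b stood at -0.98, -0.78 and -0.83, and Edn1 was not called (-0.37, adjusted p = 0.226). Another Tuft1 probe gave -0.16, and another Timp3 probe 1.17.

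Among the ligands of the family 4 of 10 tested genes rose and 3 fell (40.0% and 30.0%), beside 15.7% and 18.7% of all genes. The gene of TGFB1 itself stood at 6.96, 6.82, 6.91 and 7.21 with TGFB1, against 6.09, 6.10, 6.07 and 6.25 in serum-free medium (log2 change 0.85 ± 0.13, adjusted p = 0.000321), with no overlap. Inhba, which encodes the activin A subunit, rose by 0.62 ± 0.13 and Bmp1, a procollagen protease grouped with the BMPs by name, by 0.60 ± 0.20 (adjusted p = 0.00366 and 0.0326). With the term Bmp1 stood at 0.99, and its call without the term was lost when TGFB1 replicate 2 or 3 or serum-free replicate 2 or 4 was left out (0.53 to 0.65). Tgfb2 was called without the term alone (0.65, and 0.32 with it, adjusted p = 0.484), and its groups overlapped. Gdf15, Lefty1, a secreted antagonist of Nodal, and Bmp4 changed by -1.58 ± 0.13, -1.46 ± 0.13 and -1.44 ± 0.19 (adjusted p = 1.37e-06, 4.32e-06 and 0.000107). These falls held with the term (-1.49, -1.32 and -1.01). Of 11 latency and extracellular modulator genes 7 rose and none fell (63.6% and 0.0%), 5 of them both ways. They include Ltbp1 and Ltbp3, which hold latent TGF-beta in the matrix (1.37 ± 0.18 and 0.79 ± 0.15), Thbs1, whose product can activate it (1.42 ± 0.15), and the follistatin-like gene Fstl1, which was at least 1.59-fold higher (adjusted p = 0.000121, 0.00154, 1.53e-05 and 0.000941). With the term Ltbp3 stood at 0.52. Another Ltbp1 probe gave 0.07 and another Ltbp3 probe 0.26.

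Of 10 tested receptors 3 rose and 2 fell without the term (30.0% and 20%, beside 15.7% and 18.7% of all genes). Of these 2 and 1 were called both ways, where all genes have 5.8% and 6.42%. Tgfbr1, the type I receptor of TGF-beta, stood at 12.07, 12.22, 12.09 and 12.04 with TGFB1, against 10.94, 10.98, 10.30 and 10.87 in serum-free medium (log2 change 1.33 ± 0.21, adjusted p = 0.00051, and 1.92 with the term). Tgfbr2, the type II receptor that binds TGFB1, stood at 8.73, 8.79, 8.80 and 8.52 with TGFB1, against 9.30, 9.23, 9.51 and 9.47 in serum-free medium (log2 change -0.67 ± 0.11, adjusted p = 0.000752). The groups did not overlap in either gene, Tgfbr1 being higher and Tgfbr2 lower with TGFB1, although Tgfbr2 turned to 0.19 under median scaling. A second probe of Tgfbr2 gave a change of 0.04, and the 3 other probes of Tgfbr1 gave 0.39 to 2.61. Acvr1, a type I receptor of BMPs and activins, stood at 9.34, 9.50, 9.46 and 9.38 with TGFB1, against 7.05, 7.18, 7.56 and 7.54 in serum-free medium (log2 change 2.09 ± 0.15, adjusted p = 4.94e-07, and 1.82 with the term). Without the term it was the largest receptor change among the 10 tested, and with it Tgfbr1 changed more. The other 2 calls were without the term alone, and 5 receptors were not called. Of 10 SMAD and partner genes Smad3 rose by 0.87 ± 0.17 and the partner Runx1 by 1.19 ± 0.19, and the coactivator gene Ep300 changed by -1.11 ± 0.25 (adjusted p = 0.0023, 0.000482 and 0.00498). For Ep300 the value with the term was -0.40, and under median scaling the gene was not called (-0.25, adjusted p = 0.142). Of the 12 fits with the term that leave out 1 array, 6 did not call Smad3, 5 Ep300 and 1 Runx1.

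The genes that restrain SMAD signalling moved in both directions. Of 14 tested 5 rose and 4 fell (35.7% and 28.6%), beside 15.7% and 18.7% of all genes, and 5 and 2 did so both ways. Pmepa1, which binds SMAD2 and SMAD3 at the membrane, stood at 6.30, 5.95, 6.34 and 6.69 with TGFB1, against 4.22, 4.14, 4.81 and 4.15 in serum-free medium (log2 change 1.99 ± 0.22, adjusted p = 2.21e-05). It was detected on 1 serum-free array only, so this change is measured mostly against background. The corepressor gene Tgif1 rose by 1.35 ± 0.14, Skil, which encodes the corepressor SnoN, by 0.73 ± 0.18, Zfp451 by 0.93 ± 0.12 and Smurf1, a ubiquitin ligase for the receptors and SMADs, by 0.71 ± 0.16. All of these were called both ways, and Skil was higher with the term (1.16). Nedd4l, a ubiquitin ligase for activated SMAD2 and SMAD3, stood at 6.35, 6.72, 6.64 and 6.54 with TGFB1, against 8.76, 8.58, 8.03 and 8.65 in serum-free medium (log2 change -1.94 ± 0.22, adjusted p = 2.89e-05). Tob1, an antiproliferative gene that binds SMADs, changed by -1.30 ± 0.16 (adjusted p = 8.04e-05). Smad7, the inhibitory SMAD most often cited as a TGF-beta target, was detected on 1 of the 8 arrays and was not tested.

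BMP and SMAD1/5 target genes held falls and no rise. Of 8 tested none rose and 5 fell (0.0% and 62.5%, beside 15.7% and 18.7% of all genes), 4 of them both ways. The median was -0.62 without and -0.47 with the term. Under median scaling Id1, Msx1 and Hey1 turned above 0. Id2 and Id3 stayed below 0 there but were not called (-0.37 and -0.84, adjusted p = 0.648 and 0.117). Id1, Id2 and Id3 encode inhibitors of basic helix-loop-helix factors. Id3 stood at 4.95, 5.09, 5.04 and 5.04 with TGFB1, against 5.68, 6.75, 7.28 and 6.55 in serum-free medium (log2 change -1.53 ± 0.26, adjusted p = 0.000859). Id2 stood at 9.34, 9.21, 9.21 and 9.30 with TGFB1, against 10.19, 10.15, 11.73 and 9.70 in serum-free medium (log2 change -1.18 ± 0.42, adjusted p = 0.0427). Id1 stood at 9.12, 9.29, 9.22 and 9.12 with TGFB1, against 9.73, 9.67, 10.17 and 9.67 in serum-free medium (log2 change -0.62 ± 0.15, adjusted p = 0.00683). In all 3 genes the bright serum-free array was the highest and the TGFB1 arrays the lowest, and the change was larger with the term (-2.11, -2.45 and -0.97). Without the term Id2 lost its call when any single array of the 8 other than serum-free replicate 4 was left out (-0.75 to -1.28, adjusted p = 0.0647 to 0.0864). Its call was also lost with no background correction, with cyclic loess and with the authors' processed values (adjusted p = 0.0534, 0.0509 and 0.0722). Msx1, a homeobox gene, changed by -0.62 ± 0.13 (-0.41 with the term; adjusted p = 0.00322), and Hey1 was called without the term alone (-0.67, and -0.15 with it).

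EMT transcription factors rose in part. Of 14 tested 6 rose and 1 fell (42.9% and 7.14%, beside 15.7% and 18.7% of all genes), 5 of them rising both ways. Snai1, which represses E-cadherin, stood at 6.38, 6.24, 6.68 and 6.45 with TGFB1, against 4.28, 4.17, 4.78 and 4.40 in serum-free medium (log2 change 2.03 ± 0.20, adjusted p = 7.29e-06). It was detected on all 4 TGFB1 arrays and on 1 serum-free array, and the groups did not overlap. Sox9 rose by 1.32 ± 0.20 and Ets1 by 0.86 ± 0.17 (adjusted p = 0.000369 and 0.00297), and with the term they stood at 0.83 and 1.29. The 2 other Ets1 probes gave 0.16 and 0.87. Of 12 mesenchymal genes 7 rose and none fell (58.3% and 0.0%), 5 rising both ways. The fibronectin receptor subunit Itga5 rose by 1.91 ± 0.16, and S100a4, Cald1 and Cnn2 by 1.66, 1.29 and 1.17 (adjusted p = 2.84e-06, 0.00233, 0.00147 and 0.00383). With the term the last 3 stood at 0.74, 0.81 and 0.49. Their calls with the term were lost in 2, 6 and 8 of the 12 fits that leave out 1 array. Vim, the vimentin gene, stood at 10.10, 9.92, 10.06 and 10.10 with TGFB1, against 9.23, 9.73, 10.21 and 9.24 in serum-free medium. The groups overlapped and Vim was not called (log2 change 0.44 ± 0.20, adjusted p = 0.0918, and -0.01 with the term). Without the term this depended on serum-free replicate 3, and Vim was called when that array was left out (0.64, adjusted p = 0.00464). It was also called with array quality weights (0.58, adjusted p = 0.00222) and under median scaling (1.28, adjusted p = 0.0307).

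The epithelial genes did not move as 1 group. Cdh1, which encodes E-cadherin, stood at 10.68, 10.79, 10.73 and 10.71 with TGFB1, against 9.78, 9.29, 10.48 and 9.77 in serum-free medium. It was called higher without the term (log2 change 0.90 ± 0.24, adjusted p = 0.0123) but not with it (0.25, adjusted p = 0.285), and its bright serum-free array lay next to the TGFB1 arrays. Of 29 junction genes 12 rose and 5 fell (41.4% and 17.2%, beside 15.7% and 18.7% of all genes), 5 and 4 of them both ways. Their median change was 0.35 without and 0.25 with the term. The tight junction gene Cldn4, given above, rose both ways. The adhesion gene Nectin2 and Tjp3, which encodes ZO-3, fell both ways (-1.12 and -0.66, adjusted p = 0.00255 and 0.00467), Tjp3 turning to 0.07 under median scaling. With the term Nectin2 stood at -0.55, and under median scaling it was not called (-0.25, adjusted p = 0.258). The 2 other Nectin2 probes gave -0.05 and -1.03, and the other Tjp3 probe -0.09. Of 13 polarity genes none rose and 4 fell (0.0% and 30.8%). Prkcz, which encodes atypical protein kinase C zeta, and Llgl2, a Lethal giant larvae gene, fell both ways (-1.01 ± 0.17 and -0.95 ± 0.14, adjusted p = 0.000638 and 0.000205). With the term Prkcz stood at -0.65. Under median scaling Prkcz and Llgl2 were not called (-0.12 and -0.14, adjusted p = 0.662 and 0.551).

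All 9 tested keratins were called without the term, 6 higher and 3 lower (66.7% and 33.3%, beside 15.7% and 18.7% of all genes), and 4 and 2 of them both ways. Krt20 rose by 1.71 ± 0.24 and the basal keratin Krt14 by 1.02 ± 0.24, while Krt23 and the luminal keratin Krt19 changed by -1.45 ± 0.22 and -0.59 ± 0.11, Krt19 turning to 0.19 under median scaling (adjusted p = 0.000185, 0.00666, 0.000416 and 0.00134). With the term Krt20 stood at 1.03 and Krt23 at -0.83. Krt8 and Krt18, the pair of simple epithelia, were not called with the term. Krt18 stood at 12.67, 12.60, 12.53 and 12.69 with TGFB1, against 10.83, 10.78, 12.35 and 11.51 in serum-free medium (log2 change 1.25 ± 0.31, adjusted p = 0.00901, and 0.39 with the term). The values of Krt8 were 1.08 ± 0.26 without and 0.30 with it. Of 14 epithelial identity factors none rose and 5 fell (0.0% and 35.7%), 3 of them both ways. Klf5 changed by -1.30 ± 0.15 and Foxa2 by -1.28 ± 0.25, and Id2, given above, is the third (adjusted p = 2.89e-05 and 0.00204; -1.94 for Foxa2 with the term). Foxa1 was called without the term alone (-0.23 with it, adjusted p = 0.403). Klf4, which maintains the epithelial barrier, stood at -1.11 without the term (adjusted p = 0.0514) and -2.28 with it (adjusted p = 1.3e-05). The first value lies at the threshold, since the call was made with no background correction (adjusted p = 0.0466), with cyclic loess (adjusted p = 0.0463) and with the mean of the 3 probes (-1.19, adjusted p = 0.00246).

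**Figure D4:**
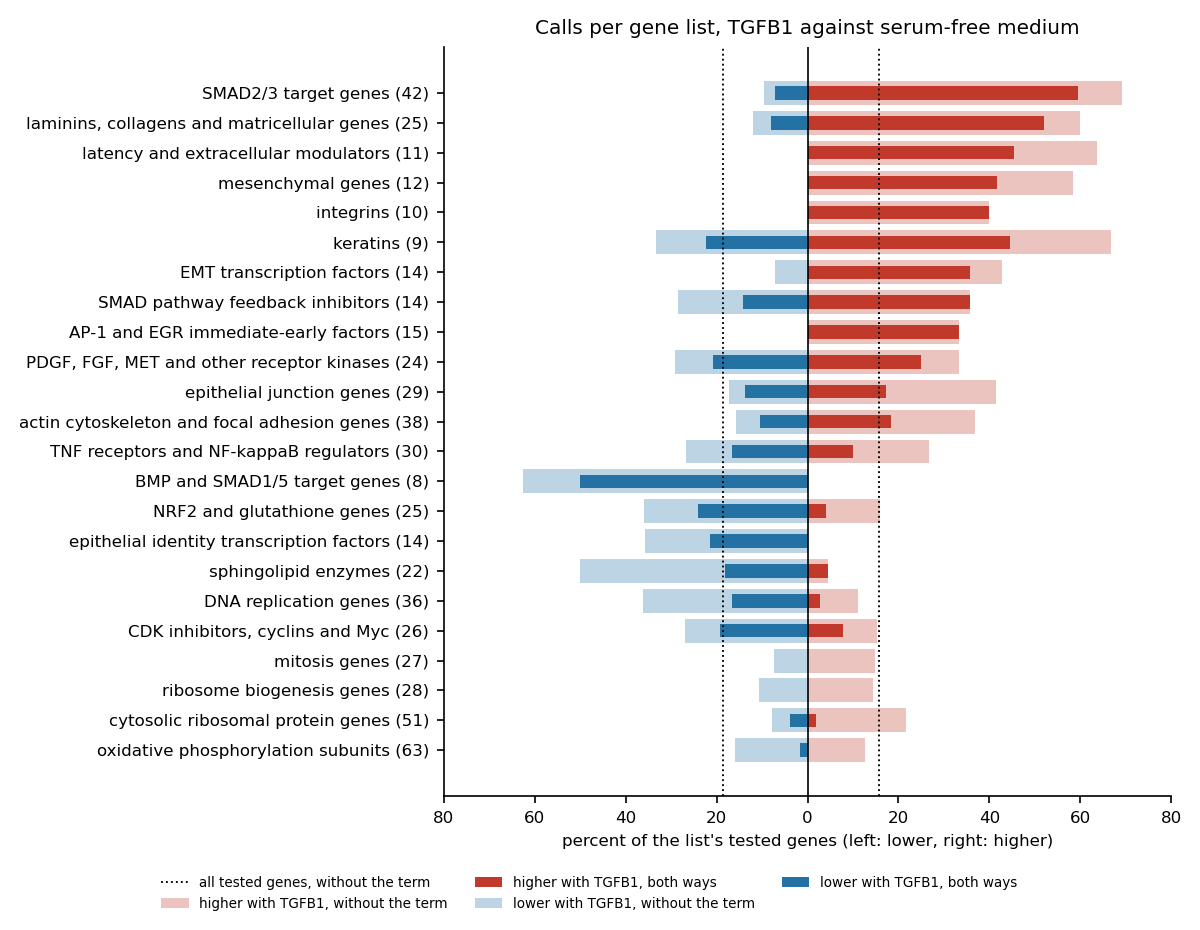
Share of each list's tested genes (number in brackets) called lower (left, blue) or higher (right, red) with TGFB1. Pale bars are calls without the brightness term, dark bars calls both ways, and dotted lines the 18.7% lower and 15.7% higher among all tested genes without the term. SMAD2/3 targets have 29 of 42 genes higher, and BMP targets have none of 8 higher.

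Many matrix genes rose. Of 25 laminin, collagen and matricellular genes 15 rose, 3 fell and 7 were not called (60.0% and 12%, beside 15.7% and 18.7% of all genes), 13 and 2 of them both ways, with a median of 0.57. Ccn4, a matricellular gene also known as WISP1, stood at 9.47, 9.82, 9.61 and 9.45 with TGFB1, against 7.59, 7.58, 7.21 and 7.86 in serum-free medium (log2 change 2.03 ± 0.20, adjusted p = 8.2e-06). Col7a1, the anchoring fibril collagen, rose by 1.68 ± 0.20, Lamb3, a laminin-332 chain, by 1.55 ± 0.13, Ccn1 by 1.61 ± 0.21 and Ccn2, the connective tissue growth factor gene, by 0.87 ± 0.16 (adjusted p = 3.54e-05, 2.71e-06, 9.5e-05 and 0.00121), and Ccn1 by 1.03 with the term. The members that fell were Nid2 (-1.01 ± 0.18, and -0.62 with the term), Lamc1 (-0.59 ± 0.11, turned to 0.29 under median scaling) and 1 gene called without the term alone. Of 10 integrin genes 4 rose, none fell and 6 were not called without the term, and 7 rose with it. Itgb5, Itga6, Itga5 and Itgb6, the last 1 a chain of the integrin that activates latent TGF-beta, rose by 2.06 ± 0.26, 1.95 ± 0.34, 1.91 ± 0.16 and 1.59 ± 0.15 (adjusted p = 6.75e-05, 0.000912, 2.84e-06 and 6.62e-06), Itga6 by 1.08 with the term. Among 21 matrix proteases and inhibitors 7 rose, 2 fell and 12 were not called (33.3% and 9.52%), and 3 rose and 1 fell both ways. Timp1 rose by 0.76 ± 0.11, and the collagenase gene Mmp13 changed by -0.88 ± 0.15 (adjusted p = 0.000339 and 0.000674). The 2 other Mmp13 probes gave 0.30 and -0.26, and the mean of its probes was not called (-0.28, adjusted p = 0.185). The glypican gene Gpc1 rose by 1.37 ± 0.24 (adjusted p = 0.00105).

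The cytoskeletal genes showed more rises than falls. Of 38 actin and focal adhesion genes 14 rose and 6 fell (36.8% and 15.8%, beside 15.7% and 18.7% of all genes), 7 and 4 of them both ways. Actn1, which encodes the crosslinker alpha-actinin-1, rose by 1.31 ± 0.15, and Rnd3, whose product opposes RhoA, changed by -1.62 ± 0.22 (adjusted p = 3.5e-05 and 0.000131). Of 19 YAP and TEAD factors and targets 7 rose and 2 fell (36.8% and 10.5%). Foxf2 rose by 1.80 ± 0.24, and Fjx1 changed by -1.82 ± 0.15 (adjusted p = 0.000105 and 2.28e-06).

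Of 15 immediate-early factors 5 rose both ways, none fell and 10 were not called without the term (33.3% and 0.0%, beside 15.7% and 18.7% of all genes). Fos, a component of AP-1, stood at 9.11, 9.20, 9.09 and 9.10 with TGFB1, against 7.11, 7.39, 6.81 and 7.34 in serum-free medium (log2 change 1.96 ± 0.13, adjusted p = 2.67e-07). Its partner Junb rose by 1.35 ± 0.14, and Maff and Ier3 by 1.60 ± 0.33 and 1.04 ± 0.10 (adjusted p = 1.6e-05, 0.00302 and 7.48e-06). With the term Maff stood at 0.73 (adjusted p = 0.0447), and 9 of the 12 fits with the term that leave out 1 array did not call it. The MAP kinase phosphatase genes split, with Dusp2 and Dusp4 (0.53 ± 0.14, and 0.86 with the term) higher and Dusp1 (-0.87 ± 0.13) lower both ways (adjusted p = 0.0154 and 0.000247). Under median scaling the fall of Dusp1 was gone (-0.003, adjusted p = 0.993).

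Cytokine and receptor genes also moved in both directions. Beside Il11, the oncostatin M receptor gene Osmr rose by 1.10 ± 0.17 and the kinase gene Jak2 by 1.26 ± 0.17, while Socs2 and Il11ra1, the receptor of IL-11, changed by -1.40 ± 0.23 and -0.96 ± 0.22 (adjusted p = 0.000403, 0.000162, 0.000735 and 0.00508). With the term Socs2 stood at -0.83 and Il11ra1 at -0.35 (adjusted p = 0.00699 and 0.034). Of 16 chemokine and interleukin genes 6 rose and 3 fell (37.5% and 18.8%, beside 15.7% and 18.7% of all genes). Ccl7 rose by 1.79 ± 0.20, and Il33 changed by -1.22 ± 0.33 (adjusted p = 2.56e-05 and 0.0146), with a larger value for Il33 with the term (-2.16). Ccl2 was called without the term alone (1.45, and 0.21 with it). Of 30 TNF receptor and NF-kappaB genes 8 rose and 8 fell (26.7% and 26.7%), 3 and 5 of them both ways, and the largest fall was that of the death receptor gene Tnfrsf21 (-1.66 ± 0.13, adjusted p = 9.93e-07).

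Of 24 PDGF, FGF, MET and other receptor kinase pathway genes 8 rose and 7 fell (33.3% and 29.2%, beside 15.7% and 18.7% of all genes), 6 and 5 of them both ways, and the PDGF ligands rose most. Pdgfa stood at 10.84, 10.94, 10.94 and 10.74 with TGFB1, against 8.16, 8.35, 8.91 and 8.46 in serum-free medium, and Pdgfb at 10.32, 10.50, 10.55 and 10.51 with TGFB1, against 8.28, 8.51, 8.30 and 8.32 in serum-free medium. The groups lay at least 1.8 log2 units apart in both genes, while another Pdgfb probe gave a change of 0.68. Mst1r, the RON receptor kinase gene, rose by 1.78 ± 0.19, and the EGF receptor ligand gene Areg and its receptor gene Egfr by 1.10 ± 0.14 and 0.88 ± 0.15 (adjusted p = 1.6e-05, 6.99e-05 and 0.00082). The 3 other Egfr probes gave -0.16 to 0.40, and the mean of its probes was not called (0.29, adjusted p = 0.232). The neuregulin gene Nrg1 and Igfbp5, which encodes an IGF-binding protein, changed by -1.62 ± 0.18 and -2.04 ± 0.25 (adjusted p = 2.68e-05 and 6.61e-05). Igfbp5 was the only 1 of 13 IGF axis genes called both ways, although 3 rose and 4 fell without the term. The Notch ligand gene Jag1 rose by 1.34 ± 0.14 and Wnt7a by 1.38 ± 0.15, while Wnt4 and the Wnt receptor genes Fzd5 and Fzd7 changed by -0.96, -1.77 and -1.18 (adjusted p = 1.74e-05, 2.35e-05, 0.00143, 9.37e-07 and 3.57e-05).

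Cell cycle genes held calls in both directions. The CDK inhibitor genes Cdkn2b and Cdkn1a, known targets of the TGF-beta cytostatic response, rose by 0.97 ± 0.15 and 0.56 ± 0.12 (adjusted p = 0.000495 and 0.00397), Cdkn2b by 0.61 with the term. Other Cdkn1a probes gave larger changes, 1.11 and 1.87. Ccnd2, which encodes cyclin D2, stood at 7.86, 7.89, 7.88 and 7.80 with TGFB1, against 9.78, 9.77, 9.82 and 9.80 in serum-free medium (log2 change -1.94 ± 0.10, adjusted p = 3.37e-08). Serum-free replicate 3 did not stand apart in Ccnd2. Myc was detected on 2 arrays of each group and was not called (-0.21 ± 0.19, adjusted p = 0.391). Of 26 cyclin, CDK inhibitor and Myc family genes 4 rose and 7 fell (15.4% and 26.9%, beside 15.7% and 18.7% of all genes), 2 and 5 both ways. Of 36 DNA replication genes 4 rose and 13 fell without the term (11.1% and 36.1%), and 1 and 6 both ways. Mcm6, a helicase subunit, was the 1 that rose both ways (1.20 ± 0.22, adjusted p = 0.00129), and Ung, a uracil glycosylase, was among those that fell (-1.05 ± 0.19, and -0.62 with the term; adjusted p = 0.00147). Of 27 mitosis genes 4 rose and 2 fell without the term and none was called with it by limma (5 at an unadjusted p under 0.05).

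Stress and death genes split as well. Ddit4, an inhibitor of mTORC1, stood at 10.16, 10.33, 10.13 and 10.28 with TGFB1, against 7.86, 8.10, 8.35 and 8.13 in serum-free medium (log2 change 2.12 ± 0.13, adjusted p = 1.91e-07), and its relative Ddit4l at 6.21, 6.13, 6.37 and 6.45 with TGFB1, against 8.05, 7.89, 7.32 and 8.21 in serum-free medium (log2 change -1.58 ± 0.18, adjusted p = 2.62e-05). The groups did not overlap in either gene, and the pair moved in opposite directions. Gadd45a and Gadd45g rose by 1.91 ± 0.11 and 1.15 ± 0.12 (adjusted p = 7.35e-08 and 1.6e-05). Of 25 apoptosis genes 6 rose and 8 fell (24.0% and 32.0%, beside 15.7% and 18.7% of all genes), 3 and 4 both ways. The BCL2 family genes Bmf and Bok rose by 1.18 ± 0.14 and 2.03 ± 0.36, and Bbc3, which encodes PUMA, and the death receptor gene Fas changed by -1.03 ± 0.18 and -1.34 ± 0.23 (adjusted p = 3.57e-05, 0.00116, 0.00096 and 0.000851). With the term Bok stood at 0.95, Bbc3 at -0.68 and Fas at -0.70. Another Bok probe gave 0.85. The 2 other Bbc3 probes gave -0.07 and 0.15, and the mean of its probes was not called (-0.32, adjusted p = 0.0592).

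Several metabolic groups held more falls than rises. Of 25 NRF2 and glutathione genes 4 rose and 9 fell without the term (16.0% and 36.0%, beside 15.7% and 18.7% of all genes), and 1 and 6 both ways. Nfe2l2, which encodes NRF2, changed by -1.24 ± 0.14, Slc7a11, the cystine transporter gene, by -1.10 ± 0.15, and Gclc, the catalytic subunit of the enzyme that starts glutathione synthesis, by -1.36 ± 0.37 (adjusted p = 2.56e-05, 0.000145 and 0.0138). Gclm, the modifier subunit of that enzyme, rose by 1.09 ± 0.16 (adjusted p = 0.00034). With the term the values were -2.31 for Gclc and 0.69 for Gclm. Of 22 sphingolipid enzymes Sphk1 rose and 11 fell (4.55% and 50.0%), 4 of the falls both ways, led by the ceramidase gene Acer3 (-1.87 ± 0.20) and the sphingosine phosphate phosphatase gene Sgpp2 (-1.26 ± 0.13; adjusted p = 1.57e-05 and 1.84e-05). Another Acer3 probe gave -0.40. Of 27 hypoxia and glycolysis genes 5 rose and 4 fell (18.5% and 14.8%), shares near those of all genes, with the HIF prolyl hydroxylase gene Egln3 at -1.79 ± 0.13 and the glucose transporter gene Slc2a1 at 0.61 ± 0.12 (adjusted p = 4.94e-07 and 0.0017). Pfkfb4, which makes an activator of glycolysis, rose by 1.09 ± 0.30 (adjusted p = 0.0157), and by 1.97 with the term. Plin2, a lipid droplet coat gene, rose by 2.22 ± 0.34 (1.28 with the term), and Muc1, a mucin of luminal cells, changed by -1.21 ± 0.19 (-0.70 with the term; adjusted p = 0.000354 and 0.000562). Of 31 cholesterol and fatty acid synthesis genes 4 rose and 10 fell without the term, and none and 2 both ways, which were Elovl6 and Acss2 (-1.18 and -1.07, and -0.80 and -0.65 with the term).

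In housekeeping groups, as in mitosis and cholesterol synthesis genes, few calls were made both ways, beside 12.2% of all genes. Of 51 cytosolic ribosomal protein genes 11 rose and 4 fell without the term (21.6% and 7.84%, beside 15.7% and 18.7% of all genes). Both ways 1 rose and 2 fell, beside 5.8% and 6.42% of all genes. Of 63 oxidative phosphorylation subunits 8 rose and 10 fell (12.7% and 15.9%, near the shares of all genes), against none and 1 both ways. Of 28 ribosome biogenesis genes 4 rose and 3 fell (14.3% and 10.7%), against none both ways (3 with the term at an unadjusted p under 0.05). Rps3a1, a small ribosomal subunit gene, stood at 11.09, 10.99, 10.99 and 10.98 with TGFB1, against 8.44, 8.73, 10.98 and 8.71 in serum-free medium. Its change was 1.80 ± 0.63 without the term (adjusted p = 0.0409) and -0.16 with it (adjusted p = 0.514), and the bright serum-free array was level with the lowest TGFB1 array. In Ndufb9, a complex I subunit gene, it lay among the TGFB1 arrays, at 9.66, 9.31, 9.79 and 9.72 with TGFB1, against 6.70, 7.37, 9.56 and 7.47 in serum-free medium (1.84 without and 0.20 with the term). Zbtb7a, a transcriptional repressor gene, stood at 5.41, 5.91, 5.23 and 5.20 with TGFB1, against 8.33, 8.56, 5.83 and 8.34 in serum-free medium (-2.33 without and -0.10 with the term), the largest change among the named genes called without the term alone. Thsd4, Txn1, which encodes thioredoxin, Rtn4, Map1lc3b, Psmb5, a proteasome subunit gene, Arpc1b, an Arp2/3 subunit gene, and H2-T3 complete the 10 largest such changes, at -2.19, 1.93, 1.93, 1.87, 1.84, 1.79 and -1.72 without the term, and -0.29, 0.27, 0.43, 0.11, 0.35, -0.05 and -0.40 with it. Other Arpc1b probes gave 0.02 and 1.31 without the term. Of 12 common reference genes the transferrin receptor gene Tfrc was called lower without the term (-0.64, and -0.26 with it) and none was called with it (0 at an unadjusted p under 0.05).

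**Figure D5:**
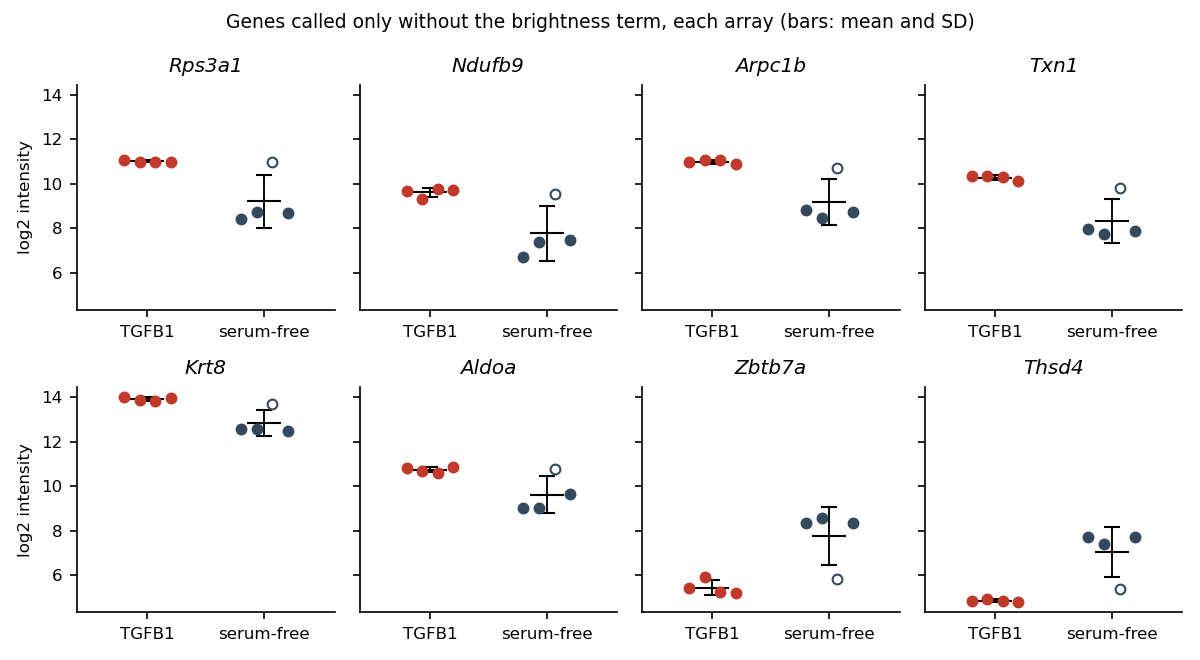
Normalized log2 intensity of 8 genes called only without the brightness term, on each TGFB1 array (red, left) and serum-free array (dark blue, right), with mean and SD. The open point, serum-free replicate 3, lies at or near the TGFB1 arrays, as in Rps3a1 with 10.98 against 8.44 to 8.73 on the dim arrays.

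GDF11, which also signals through SMAD2 and SMAD3, was used at another dose and shares the serum-free arrays, so the values are set side by side. Lmcd1 changed by 4.59 with TGFB1 and 4.15 with GDF11, and the difference between the ligands was 0.44 ± 0.18 (adjusted p = 0.467). Dio3 changed by -3.88 with TGFB1 and -3.21 with GDF11 (difference -0.67 ± 0.14, adjusted p = 0.0498). Il11 changed by 4.02 with TGFB1 and 2.53 with GDF11 (difference 1.50 ± 0.27, adjusted p = 0.0181). Cldn4, not detected in serum-free medium, differed between the ligands by 1.12 ± 0.16 (adjusted p = 0.00527). Ass1 changed by 3.28 with TGFB1 and 1.92 with GDF11 (difference 1.36 ± 0.14, adjusted p = 0.000499), and Snai1 by 2.03 with TGFB1 and 0.91 with GDF11 (difference 1.12 ± 0.20, adjusted p = 0.0169). For Id2 the difference was -1.05 ± 0.42 (adjusted p = 0.459) without the term and -1.47 with it (adjusted p = 4.1e-05). In all, 76 of 9134 genes (0.832%) differed between the ligands without the term and 229 (2.51%) with it.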

How the data were processed

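Expression was measured on 12 Illumina 1-colour mouse beadchips, 4 per group, and the arrays were grouped by their labels. The authors deposited a raw table with, per the file headers, a probe intensity (signal averaged over beads), a detection p-value and the number of beads (unit: other) for each array, and a second table of processed values. The processed values are on a log2 scale, judged from the deposited numbers; the submitters' processing notes name lumi. Their column medians lay between 6.90 and 6.92, and each column ranked probes as its raw column did (Spearman correlation 1.0).

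From the raw intensities, limma 3.58.1 in R 4.3.3 corrected background from the detection p-values (neqc, offset 16), applied quantile normalization and took log2. A probe was used if 4 or more of the 12 arrays detected it (p under 0.05), and the brightest of a gene's probes stood for the gene. Symbols were updated through a RefSeq table (GRCm38.p6), which also gave the promoters. Of the symbols, 14307 were current, 2906 were renamed by a single synonym and 904 were kept as the file gives them. 31 probes with a date for a symbol were not named. A model with 3 group means was fitted to all 12 arrays (lmFit, eBayes, Benjamini-Hochberg), and a second fit added the brightness term. The arrays' number limits the precision, and the code was tested on simulated data. Python 3.11.15 with pandas 2.3.3 and matplotlib 3.10.9 summarised and drew the results.

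Named genes are the 20 largest rises and falls that were called both ways with groups not overlapping, detected in the higher group and under 1 current symbol, the leading called members of each gene list, single calls in lists with few calls, a fixed list of ligand responders, and the 10 largest changes lost with the term. Klf4 and Ppp1r3c are outside that rule and were chosen after their values were seen. The comparison and the lists were chosen with earlier results of these data known. "At least" folds use each array's lowest signal among detected probes as the floor. The labels give replicate numbers in every group, but deviations of same-numbered TGFB1 and serum-free arrays correlated at -0.01 to 0.06, so the numbers were not taken to pair the arrays. Alternatives changed the background correction, offset, normalization, filter, probe rule, samples, weights, block and brightness correction. Some genes are not reported here by name.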

Additional observations from a re-analysis of the deposited data

Results flagged for a closer look

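An array was picked out where its gap to the nearest other array of its group, divided by the range of the group, was over 0.829. Chance does this for about 1 in 20 groups of 4. Among 364 groups of gene values 40 were picked out, and so were the mean raw intensity (0.878) and the percent of probes detected (0.946) in the serum-free group, both because of replicate 3. The cause was not tested.

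Of the gene values, 10 were in TGFB1 arrays. The ratios were 0.927 for Ccn1 and 0.868 for Gclc, 0.835 for Il33 and 0.849 for Krt19, with 1 low array each. They were 0.829 for Chst8, 0.906 for Gclm, 0.842 for Krt20, 0.926 for Ltbp1, 0.891 for Rps3a1 and 0.843 for Shh, with 1 high array each.

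In the serum-free group replicate 3 stood apart in 24 genes. It was the highest in Actn1 (0.977), Krt8 (0.915), Rps3a1 (0.887), Txn1 (0.88), Ltbp1 (0.879), Pmepa1 (0.876), Ass1 (0.873), Ltbp3 (0.871), Id1 (0.869), Krt20 (0.85), Arpc1b (0.837) and Bok (0.832). It was the lowest in Zbtb7a (0.915), Ep300 (0.912), Kitl (0.9), Slc7a11 (0.89), Wnt7a (0.882), Nectin2 (0.881), Mtcl1 (0.878), Ppp1r3c (0.871), Prkcz (0.865), Thsd4 (0.863), Tgfbr1 (0.843) and Foxa1 (0.831). Another serum-free array stood apart in Dusp2 (0.986), Runx1 (0.967), Lamb3 (0.94), Pcolce2 (0.895), Foxf2 (0.845) and Pdgfb (0.832).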

How the results depend on the processing

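The number of called genes depended mainly on how brightness was treated. Against 3140 calls (1436 higher, 1704 lower), the brightness term gave 1448 (724 and 724), log2 mean raw intensity as a covariate 1264 (644 and 620), the bright arrays alone 1558 (788 and 770) and the term with cyclic loess 1741 (920 and 821). Array quality weights gave 4882 (2306 and 2576). Median scaling gave 3984 higher and 138 lower. Without the term, leaving out each TGFB1 or serum-free array in turn gave 2046 to 4453 calls (928 to 2081 higher, 1112 to 2372 lower). With the brightness term, an alternative chosen after seeing the data, the GDF11 arrays were left out in turn as well. This gave 975 to 1580 calls (514 to 791 higher, 461 to 789 lower). The other 9 alternatives gave 2475 to 3539 calls.

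The replicate number as a block called 3299 genes (1562 higher, 1737 lower), and with the brightness term 1048 (571 and 477). In 1 of 4 cases a TGFB1 array correlated best with the serum-free array of its own number.

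Of 179 named genes that were called, 120 kept call and direction under all alternatives set out at the start. Under median scaling these falls turned above 0: Edn1 (0.042), Tjp3 (0.07), Msx1 (0.16), Hey1 (0.16), Tfrc (0.17), Krt19 (0.19), Tgfbr2 (0.19), Id1 (0.24) and Lamc1 (0.29). The same scaling left 25 other falls below 0 but not called. They include Acss2, Bbc3, Dusp1, Elovl6, Ep300, Foxa1, Foxa2, Fzd7, Gclc, Gdf15, Id2, Id3 and Il11ra1. The rest are Il33, Lefty1, Llgl2, Mmp13, Nectin2, Nfe2l2, Nid2, Prkcz, Sgpp2, Tob1, Ung and Wnt4. Tgfb2 turned to -0.10 on bright arrays alone. Rps3a1 turned to -0.16 with the brightness term, -0.27 with the covariate, -0.14 with the term and cyclic loess and -0.12 with the block and the term. Arpc1b turned to -0.045, -0.10, -0.018 and -0.073 in the same 4 fits. With single arrays left out, over both fits, the change lay between -0.47 and 2.39 for Rps3a1, -0.57 and 2.30 for Arpc1b, -0.42 and 2.35 for Map1lc3b, -0.055 and 2.42 for Txn1, -0.10 and 1.03 for Tgfb2, -2.75 and 0.10 for Thsd4 and -2.97 and 0.39 for Zbtb7a. The cause was not tested. Of 160 named genes called both ways, 33 lost the call in at least 1 of the 12 fits with the term that leave out 1 array, most often Maff (9), Cnn2 (8) and Il11ra1 (7). For the 1116 genes called both ways, 421 of 501 other probes of 341 genes had the same direction (84.0%).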
